A study of Mus musculus with 2 samples.

Results

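The 9 genes described here, of 18194 named on the array, make, carry, bind or break down retinoids, the vitamin A compounds. The set was chosen from the log2 ratios of these same arrays, so those ratios are given as a description. Every array probe set whose only gene symbol is one of them was taken, which gave 12 probe sets. The arrays compare mammary epithelial cells of Cuzd1-null mice with those of Cuzd1-heterozygous littermates, on a mostly C57BL/6 background, at day 18 of pregnancy. Cuzd1, the gene of a protein built of CUB domains and a zona pellucida-like domain, was disrupted by homologous recombination in embryonic stem cells, and the control mice carry 1 disrupted copy. Inguinal glands were digested with hyaluronidase and collagenase and spun down with no recorded sort, and RNA of 5 mice per genotype was pooled onto 1 array per genotype. With 1 array per genotype there was no replicate check, no test could be run and no p-value is given, so each difference below is one between these 2 pools.

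Retinol circulates bound to the carrier Rbp4 and can enter cells through the membrane receptor Stra6. Inside the cell, alcohol and retinol dehydrogenases such as Adh1 and Adh7 oxidise retinol to retinaldehyde, and the retinaldehyde dehydrogenases Aldh1a1, Aldh1a2 and Aldh1a3 oxidise that to retinoic acid. Crabp2 carries retinoic acid to its nuclear receptors, and Cyp26b1, a cytochrome P450, breaks it down. In the mammary gland, aldehyde dehydrogenase activity is widely used to mark progenitor cells of the epithelium, and vitamin A passes from the gland into milk.

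The largest difference among the 9 genes was at Adh1, so the stretch just upstream of its start site is shown beside those of Adh7, its neighbour on the same strand of chromosome 3, and Aldh1a1. The 250 bases before the start were taken from RefSeq, build GRCm38.p6, and read 5′ to 3′ on the strand of the gene. They lie at chr3:138277335-138277584 (plus strand) for Adh1, chr3:138217523-138217772 (plus strand) for Adh7 and chr19:20601718-20601967 (plus strand, the more downstream of the start sites listed) for Aldh1a1. Capitals mark, on either strand, hexamers that retinoic acid receptors bind in pairs (the consensus AGGTCA, its variant AGTTCA, the variant GGGTCA or the variant GGTTCA), and the core TTGCAA of the motif of C/EBP factors.
Adh1: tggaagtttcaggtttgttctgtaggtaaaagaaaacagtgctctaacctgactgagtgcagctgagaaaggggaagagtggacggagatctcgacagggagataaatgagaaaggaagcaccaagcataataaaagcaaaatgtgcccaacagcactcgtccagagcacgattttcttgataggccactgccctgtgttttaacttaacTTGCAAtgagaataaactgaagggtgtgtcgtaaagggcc
Adh7: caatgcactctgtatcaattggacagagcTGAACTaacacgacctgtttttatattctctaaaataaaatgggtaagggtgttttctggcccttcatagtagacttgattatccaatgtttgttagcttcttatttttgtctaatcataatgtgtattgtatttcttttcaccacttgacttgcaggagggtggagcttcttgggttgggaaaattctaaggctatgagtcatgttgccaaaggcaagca
Aldh1a1: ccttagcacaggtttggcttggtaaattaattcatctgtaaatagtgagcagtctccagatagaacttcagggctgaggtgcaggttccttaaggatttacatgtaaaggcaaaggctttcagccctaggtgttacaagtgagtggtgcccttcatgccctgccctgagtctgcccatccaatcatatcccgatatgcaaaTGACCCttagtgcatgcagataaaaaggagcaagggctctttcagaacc
The Adh1 window held TTGCAA from 40 to 35 bases before the start and none of the receptor hexamers. TTGCAA is its own reverse complement, and 5.34% of all 32851 RefSeq windows of this length held it. The Adh7 window held AGTTCA on the opposite strand, from 221 to 216 bases before the start, and the Aldh1a1 window held GGGTCA on the opposite strand, from 49 to 44 bases before it. At least 1 of the 4 receptor hexamers was found in 38.6% of all windows. Direct repeats of these hexamers with a spacing of 5 bases were found in 0.0883% of all windows and in none of the windows of the 7 members that had one. Such matches describe the letters of these windows and were not tied to binding. Crabp2 and Aldh1a3 had no window here.

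The deposited values are MAS5 signals, 1 linear intensity per probe set and array, scaled by the authors to the same level on both arrays. Low MAS5 signals are mostly background, so the median of all non-control probe sets of an array, 32.5 units on the null array and 34.2 units on the heterozygous array, was used as its floor. A gene was represented by its brightest probe set and counted as measured where its signal passed the floor on 1 array or both, as 11894 genes did. A robust SD, computed from the median absolute deviation of log2 ratios among genes of similar signal, is given as a yardstick. It holds real differences as well as noise and does not replace replicate error. Because probes differ in how well they bind, a signal is not read as the level of one gene against another, and a signal summed over a marker list adds the same probe sets on both arrays and is weighted by its brightest ones. The maximum signal was 18300 units on the null array and 19898 units on the heterozygous array. The probe set of Cuzd1 read 34.0 units on the null array and 32.4 units on the heterozygous array, close to the floor on both, and so did not check the genotype labels.

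The direction of small ratios depended on how the arrays were scaled, and values below are on the deposited scale unless said. The 18 probe sets of the hybridization controls, usually added in equal amounts to every array, had a median log2 ratio of -0.22 there. Rescaling to them moved the median of all measured genes from 0.03 to 0.25, so a ratio between -0.22 and 0 changes its sign on that scale. Of the genes at least 2-fold apart, 85.2% were then higher in the null pool, against 52.0% as deposited. On the rescaled values Adh1 had a ratio of 1.83 and Crabp2 one of 0.86, both above the median of all measured genes.

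Adh1 and Crabp2 had the largest differences of the 9 genes, both with more signal in the null pool. Of the 9 genes, 5 were measured, all 5 above the floor on both arrays, and the other 4 (Aldh1a2, Rbp4, Stra6 and Cyp26b1) were below it on both. Of the 5 measured genes, 1 was at least 2-fold higher in the null pool, against a background of 1.12% of all measured genes, and 0 were at least 2-fold lower, against 1.03%. Because the set was proposed with these ratios known, nothing is read from that count. The median log2 ratio of null over heterozygous was 0.25 over the 5 genes and 0.03 over all measured genes. The ratios ran from -0.16 for Aldh1a3 to 1.61 for Adh1.

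**Figure D1:**
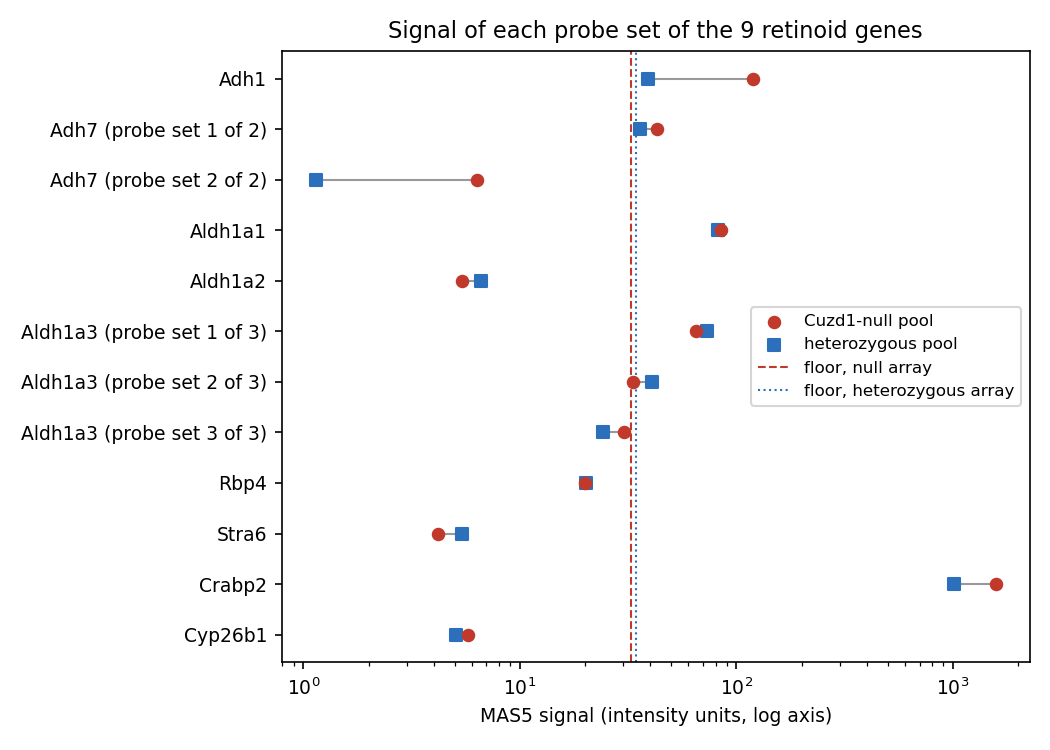
MAS5 signal (log axis, intensity units) of the 12 probe sets of the 9 genes, with red circles for the Cuzd1-null pool, blue squares for the heterozygous pool, a line joining both values of a probe set, and the floors as vertical lines. Adh1 (119 and 39.2 units) and Crabp2 (1575 and 1014 units) are the pairs that lie apart above the floor, and 6 probe sets lie below both floors.

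Adh1, a class I alcohol dehydrogenase that oxidises ethanol and retinol, read 119 units in null cells and 39.2 units in heterozygous cells at its probe set 1416225_at. The heterozygous value was only just above the floor, while the null value was well above it. The difference was 3.04-fold, a log2 ratio of 1.61 where genes of similar signal had a robust SD of 0.42. Adh1 ranked 15 from the highest ratio among the 11894 measured genes, and 10 among those above the floor on both arrays. It has a single probe set, so no second reading of the transcript was at hand, and with the floor raised to the 75th percentile of each array both values lay below it.

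Adh7, a class IV alcohol dehydrogenase active toward retinol and found mainly in surface epithelia, was close to the floor. Its brighter probe set read 43.0 units in null cells and 36.0 units in heterozygous cells, a log2 ratio of 0.25 against a robust SD of 0.44 among genes of similar signal. The second probe set read 6.33 units in null cells and 1.14 units in heterozygous cells, both far below the floor, where the order of values carries no information. The difference at the brighter probe set was therefore smaller than the spread at its signal. The Adh6a and Adh6b genes on the other side of Adh1 were below the floor on both arrays. Adh5, the class III enzyme that every cell uses to clear formaldehyde, read 1486 units in null cells and 1434 units in heterozygous cells, a log2 ratio of 0.05.

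The measured retinaldehyde dehydrogenases differed by less than the spread among genes of similar signal. Aldh1a1 read 84.4 units in null cells and 82.6 units in heterozygous cells, a log2 ratio of 0.03 with a robust SD of 0.42 at that signal. Its close relative Aldh1a7 lies next to it on chromosome 19, and probes of one may bind transcripts of the other. Aldh1a7 itself read 36.2 units in null cells and 30.8 units in heterozygous cells, where the heterozygous value is below the floor. Aldh1a2, the enzyme that makes most retinoic acid in the mouse embryo, read 5.37 units in null cells and 6.64 units in heterozygous cells, both below the floor.

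Aldh1a3, the retinaldehyde dehydrogenase best known from luminal progenitors of the gland, had 3 probe sets, of which 2 were above the floor. The brightest read 65.1 units in null cells and 72.8 units in heterozygous cells, a log2 ratio of -0.16 (0.06 after rescaling to the hybridization controls). The next read 33.2 units in null cells and 40.8 units in heterozygous cells, a log2 ratio of -0.30. The dimmest read 30.1 units in null cells and 24.1 units in heterozygous cells, both below the floor. The robust SD among genes of similar signal was 0.44, larger than the ratio at either probe set above the floor.

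Crabp2, the cellular retinoic acid binding protein that hands its ligand to the nuclear receptors, read 1575 units in null cells and 1014 units in heterozygous cells at its probe set 1451191_at. Both values lay far above the floor. The difference was 1.55-fold, a log2 ratio of 0.64 where genes of similar signal had a robust SD of 0.22. Below it lay 95.1% of all measured genes, and 8.91% of them had a log2 ratio at least as large in either direction. Crabp2 did not reach the 2-fold rule and, like Adh1, rests on 1 probe set.

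Genes for the transport of retinol and the breakdown of retinoic acid gave no usable level. Rbp4, the retinol carrier of blood, read 19.9 units in null cells and 20.2 units in heterozygous cells. Stra6, its receptor, read 4.18 units in null cells and 5.38 units in heterozygous cells. Cyp26b1 read 5.77 units in null cells and 5.06 units in heterozygous cells. All of these lie below the floor, so no fold is given, and a transcript below the floor is not shown to be absent.

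**Figure D2:**
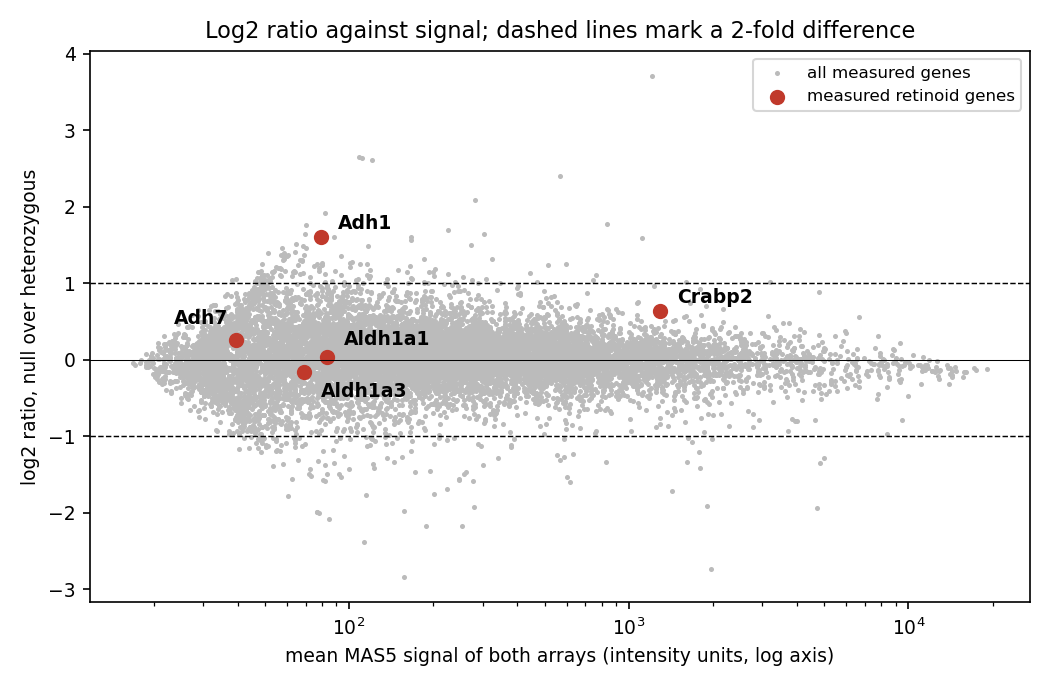
Log2 ratio of null over heterozygous against the mean signal of both arrays (log axis, intensity units) for all 11894 measured genes (grey) and the 5 measured retinoid genes (red); dashed lines mark a 2-fold difference. Adh1 (1.61) lies above the upper line, Crabp2 (0.64) lies above most genes of its signal, and Adh7, Aldh1a1 and Aldh1a3 lie within the cloud.

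The other genes of the pathway were taken from 6 lists written with earlier results known. Of the 90 genes listed, 80 had a probe set and 43 were measured. Of these 43, on the deposited scale, 0 were at least 2-fold higher in the null pool and 0 were at least 2-fold lower, where 1.12% and 1.03% of all measured genes were. Their median log2 ratio was 0.05, with quartiles of -0.23 and 0.24, against 0.03 over all measured genes.

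Further enzymes of retinol and retinaldehyde had 12 measured of 25 listed genes, with a median log2 ratio of 0.15 and 10 of the 12 above 0, as 54.0% of all measured genes were. The aldo-keto reductases Akr1b8 and Akr1b10, whose human relative AKR1B10 reduces retinaldehyde back to retinol, had the largest ratios among the genes above both floors. Akr1b8 read 162 units in null cells and 113 units in heterozygous cells (1.43-fold). Akr1b10 read 432 units in null cells and 316 units in heterozygous cells (1.36-fold), with a log2 ratio of -0.25 at its next probe set. Of the retinol dehydrogenases, Rdh10, which makes most of the retinaldehyde in the mouse embryo, had a ratio of -0.39, and Rdh11 had 0.23. Rdh5 read 28.3 units in null cells, below the floor, and 54.3 units in heterozygous cells, at least 1.67-fold lower. Dhrs3, which reduces retinaldehyde, had 0.38. Rdh10, Rdh11, Rdh5 and Dhrs3 were named after their values were seen.

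Genes for storage, release and uptake of retinoids had medians below 0 as deposited. Retinyl ester storage and release had a median log2 ratio of -0.27 over 6 measured genes, or -0.05 when rescaled to the hybridization controls. Lpl, the lipase that takes up fat and retinyl esters from chylomicrons, read 6554 units in null cells and 8977 units in heterozygous cells, 1.37-fold lower in the null pool. Pnpla2, the triglyceride lipase of lipid droplets, had a ratio of -0.42. Of the 10 listed carriers, 3 were measured, all 3 with ratios below 0 and a median of -0.17 that became 0.05 when rescaled, with 2 of the 3 then above 0. Rbp7, an intracellular retinol binding protein, read 543 units in null cells and 767 units in heterozygous cells, a ratio of -0.50, where genes of similar signal had a robust SD of 0.25. Scarb1, a lipoprotein receptor that also takes up carotenoids, had a ratio of -0.17. Ttr, which carries Rbp4 in blood, and Lrat, which esterifies retinol, were below both floors.

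The nuclear receptors of retinoids and their cofactors had a median log2 ratio of -0.11 over 8 measured genes (0.11 after rescaling to the hybridization controls). Rxrb, a partner of the retinoic acid receptors, read 434 units in null cells and 284 units in heterozygous cells, 1.53-fold higher, with a ratio of 0.61. Ppard, a receptor to which retinoic acid can be delivered by Fabp5, had a ratio of -0.25. Rarg had -0.22 and Rxra -0.03, both named after their values were seen. Rara, Rarb and Rxrg were below both floors.

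Genes known to respond to retinoic acid had a median log2 ratio of 0.25 over the 13 measured of 30 listed, with 10 of the 13 above 0 (9 with quantile normalization), where 54.0% of all measured genes were. Rarres2, the chemoattractant chemerin, read 163 units in null cells and 93.0 units in heterozygous cells, 1.76-fold higher, with a ratio of 0.74 at its next probe set. Tlr2, a receptor for bacterial lipoproteins, read 1546 units in null cells and 2313 units in heterozygous cells, a ratio of -0.58. Ret, named after its values were seen, read 25.6 units in null cells, below the floor, and 54.0 units in heterozygous cells, at least 1.66-fold lower. The direct targets Rarb and Cyp26a1, which retinoic acid induces in many cell types, were below both floors. Among genes of retinoic acid breakdown, 2 of 7 were measured, and they lay on opposite sides of 0, with a median of -0.07 (0.15 after rescaling to the hybridization controls). Cyp2s1, a cytochrome P450 of epithelia, read 31.4 units in null cells, below the floor, and 53.4 units in heterozygous cells, at least 1.64-fold lower, and was named after its values were seen. Cyp1b1, a cytochrome P450 that can also oxidise retinol, read 1023 units in null cells and 685 units in heterozygous cells, 1.49-fold higher, with a ratio of 0.26 at its next probe set.

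The remaining aldehyde dehydrogenases, which act on other substrates, had a median log2 ratio of -0.10 over 14 measured of 16 genes, or 0.12 after rescaling to the hybridization controls. Of them, 0 were 2-fold apart as deposited, where 1.12% of all measured genes were higher and 1.03% lower. After that rescaling 1 of the 14 was 2-fold apart, where 339 of all 11891 measured genes were higher and 59 lower. Aldh3b2 read 81.0 units in null cells and 43.0 units in heterozygous cells, a ratio of 0.91 with a robust SD of 0.44 at its signal. Aldh4a1, an enzyme of proline breakdown, had a ratio of -0.50.

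**Figure D3:**
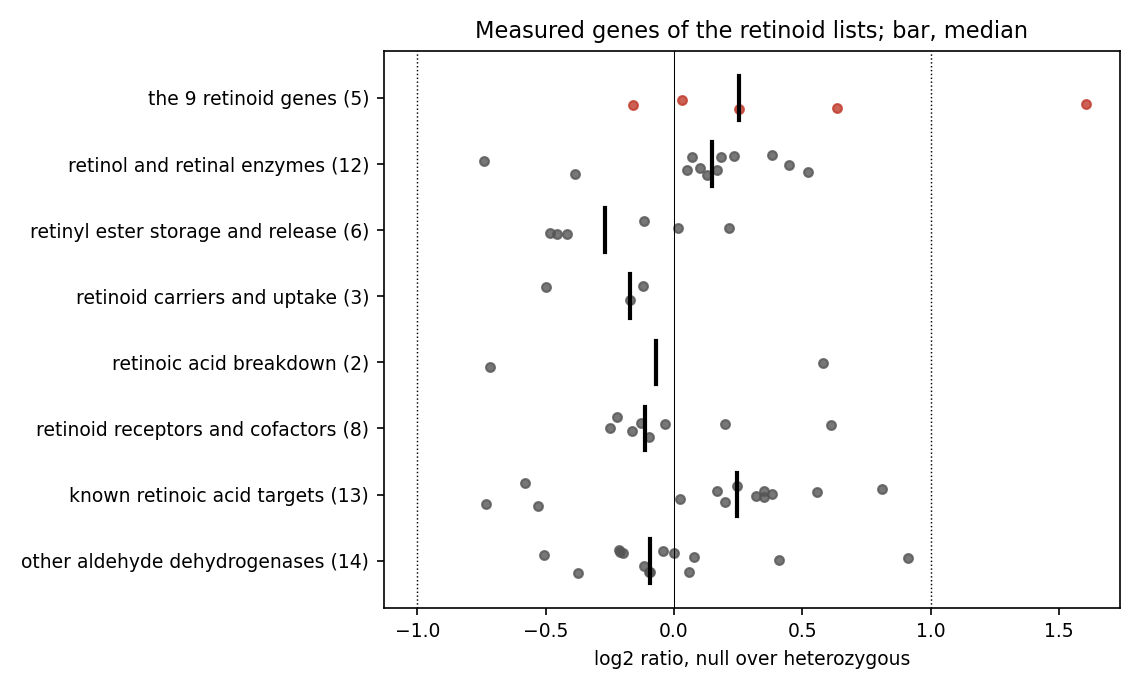
Log2 ratio of null over heterozygous (horizontal axis) of each measured gene (points) of the 9 genes and of the 7 other lists, with the median as a bar, the number of measured genes in brackets and dotted lines at a 2-fold difference. Adh1 at 1.61 is the point beyond the dotted lines, and the list medians lie between -0.27 and 0.25.

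Markers of other cell types were also read in both pools, for which no sort is recorded. In such bulk RNA, more cells of a type and more RNA per cell cannot be told apart. Luminal epithelial markers were strong, with 15 of 16 measured and a median log2 ratio of -0.07 (0.15 after rescaling to the hybridization controls). As deposited, 7 were above 0 and 8 below. Krt18 read 10003 units in null cells and 8581 units in heterozygous cells, a ratio of 0.22. Cd24a read 8627 units in null cells and 9794 units in heterozygous cells, a ratio of -0.18. Myoepithelial markers had a median of -0.03 over 11 genes, or 0.19 when rescaled, but members lay far apart. As deposited, 4 of the 11 were above 0 and 7 below, and the brightest, Acta2 and Tagln, had ratios of -0.11 and -0.03. The basal keratins Krt17, Krt14 and Krt5 had ratios of -1.55, -0.69 and -0.47. Trp63 had 0.53, and Igfbp5, a binding protein of insulin-like growth factors, had 1.01. These keratins, Trp63 and Igfbp5 were named after their values were seen. In this list 1 gene was at least 2-fold higher and 1 lower, against 1.12% and 1.03% of all measured genes. Fibroblast markers had ratios above 0 for all 16 of 16 measured genes, where 54.0% of all measured genes did. With the median ratio of all genes set to 0, 15 of the markers were above 0. As deposited, their median was 0.71 (quartiles 0.32 and 0.90). Their summed signal was 13214 units in the null pool and 8577 units in the heterozygous pool, and the brightest, Col3a1 and Dcn, had ratios of 0.41 and 0.66. Single markers ran from 0.02 to 1.61, a range that holds the ratios of both Crabp2 and Adh1. Only Pdgfra reached the ratio of Adh1. The range of the B and plasma cell markers, from 0.32 to 3.71, also holds both ratios. No fibroblast marker was below the floor on both arrays, and 3 were at least 2-fold higher in the null pool, against 1.12% of all measured genes. These were Pdgfra (1.61), Col1a2 (1.60) and Fbln2 (1.01), named after their values were seen.

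Endothelial markers had ratios above 0 for all 12 of 12 measured genes, where 54.0% of all measured genes did, and a median of 0.37. Of them, 1 (Vwf, named after its values were seen) was at least 2-fold higher, against 1.12% of all measured genes. Their summed signals were 3426 units in the null pool and 2486 units in the heterozygous pool. Macrophage and myeloid markers had a median of 0.31 over 14 genes, 12 above 0 and 2 below, and the brightest, Cd14 and Lyz2, had ratios of -0.15 and 0.43. B and plasma cell markers had 0.81 over 7 genes, 3 of which were above both floors. Of the 7, 3 (Ighm, Jchain and Mzb1) were at least 2-fold higher, against 1.12% of all measured genes. Mzb1, below the floor in heterozygous cells, was named after its values were seen. The signal of this list summed to 3018 units in the null pool and 435 units in the heterozygous pool, sums that hold the 2252 units and 172 units of Ighm. T and NK cell markers had 0.19 over 5 genes. Adipocyte markers, which belong to cells that also make Rbp4 and Rbp7, had -0.28 over 7 genes, or -0.06 with 3 above 0 and 4 below after rescaling to the hybridization controls. As deposited, 1 of the 7 (Adipoq) was at least 2-fold lower, against 1.03% of all measured genes, and 0 were after that rescaling. Adipoq read 29.2 units in null cells, below the floor, and 66.6 units in heterozygous cells, and was named after its values were seen. Skin keratinocyte markers had -0.86 over 5 genes, and 7 of the 12 listed were below both floors. Of the 5, 1 (Krt6b) was at least 2-fold lower, against 1.03% of all measured genes. Krt6b read 8.93 units in null cells, below the floor, and 112 units in heterozygous cells, and was named after its values were seen. The list summed to 1427 units in the null pool and 2106 units in the heterozygous pool, sums that hold the 1140 units and 1569 units of Sbsn. Msln, Upk3b and Wt1 of the mesothelium were below both floors. The part of any of these cell types in the ratios of Adh1 and Crabp2 was not tested.

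**Figure D4:**
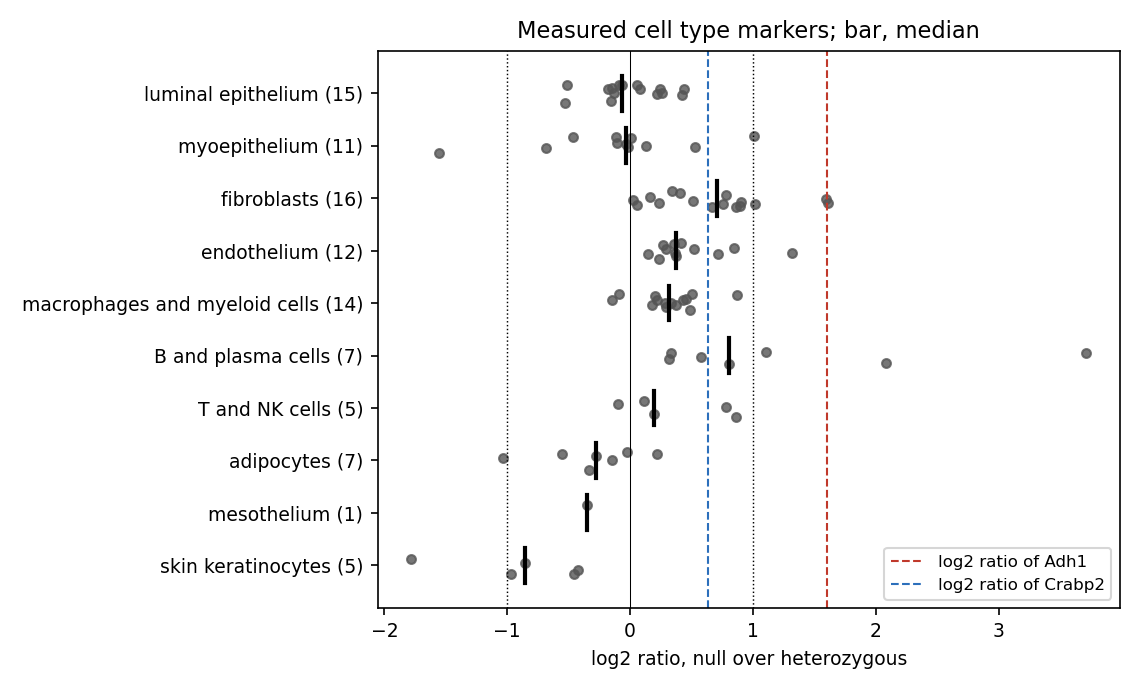
Log2 ratio of null over heterozygous (horizontal axis) of each measured cell type marker (points), with the list median as a bar, the number of measured markers in brackets, dotted lines at a 2-fold difference and dashed lines at the ratios of Adh1 (1.61) and Crabp2 (0.64). Fibroblast markers (0.02 to 1.61, median 0.71) and B and plasma cell markers (0.32 to 3.71, median 0.81) span both dashed lines.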

How the data were processed

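RNA of mammary epithelial cells, pooled from 5 mice per genotype, was measured on 1 Affymetrix 3′ array for each of 2 genotypes. The deposited values are signal intensities on a linear scale. The submitters' processing notes name MAS5 and version 1 of the Affymetrix Expression Console as the tools the authors used. A genome build was not given in the sources used here. Precision is limited by the number of arrays.

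Gene names came from the platform's probe table, in which 34958 probe sets had 1 symbol and 932 had several (left out). The table did not list 9160 of the non-control probe sets. Symbols were updated through Entrez IDs for 34754 probe sets. Signals below each array's median over 45037 non-control probe sets were set to that median, and log2 ratios (null over heterozygous) were computed with pandas 2.3.3. A fold of at least 2 was counted as a call. Ratios of measured genes were put in 20 bins by signal to give the robust SD. The procedure was tested on simulated data, with planted differences set larger than that of any measured member and in brighter genes than Adh1. Differences of the size seen for the members were not covered. Of the measured members, only Crabp2 had a signal in the range where differences were planted.

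Genes named by rule are the 9 members, from each pathway or family list the genes at least 2-fold apart and the 2 with the largest ratios above both floors, and from each cell type list the 2 brightest. Not all of the brightest markers are printed. Genes below both floors and neighbours on the chromosome were also named. Any other gene, such as Adh5, was named after its values were seen, whether or not marked so. The members and lists were chosen with earlier results of these data known. Promoter windows came from RefSeq, which held one for 7 members.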

Additional observations from a re-analysis of the deposited data

How the results depend on the processing

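Ratios were recomputed under 9 alternatives. Adh1, the only member called, kept its sign wherever it was measured. Of 94 values, 84 stayed within the spread or within 1.5 times the count, many of them because the setting could not move them. Adh1 ran from 1.57 to 1.83 in the 8 alternatives that measured it, and Crabp2 from 0.60 to 0.86 in all 9. Each has 1 probe set, so a change of probe set could not move its ratio. The floors tried did not move it either, wherever the gene was measured, and only the changes of scale did. For Adh1 that depends on the floors chosen. Its heterozygous value lay above 52.8% of the probe sets of that array and its null value above 71.7% of those of the other. A floor between these would lower the ratio of Adh1, and none was tried there. With the floor at the 75th percentile only Crabp2 was measured, so 0 members were 2-fold higher and the median of members was 0.64. Without a floor that median was 0.032 over all 9 genes. Then 7 of 80 pathway genes were 2-fold higher and 10 lower, where 9.21% of all genes were higher. With the floor at the 25th percentile 1 of 66 was higher and 4 lower, where 4.14% of all measured genes were higher. Rescaled to the hybridization controls, the median of members was 0.47, that of the other aldehyde dehydrogenases 0.12, and Aldh1a3 0.06, the other sign. On that scale 1 of 43 pathway genes was 2-fold higher, where 2.85% of all measured genes were. Over all measured genes, 133 of 11894 were 2-fold higher and 123 lower as deposited, and 339 and 59 of 11891 after that rescaling. The counts were 1676 and 1883 of 18194 without a floor, 666 and 817 of 16092 with the lower floor, and 24 and 39 of 7078 with the higher one. Fewer or more genes tested follows from the floors themselves; the cause of the other shifts was not tested. Signal over background limits Adh7, Aldh1a2, Rbp4, Stra6 and Cyp26b1. It also limits Adh1, whose heterozygous value of 39.2 units was only just above the floor of 34.2 units. The second probe set of Aldh1a3, at 33.2 units in null cells against a floor of 32.5 units, is limited too. No paired analysis was possible because each genotype has 1 array, and no array could be left out.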

Other observations

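The genes next to the 9 members on the chromosome were looked up by their order in RefSeq, with the nearest 2 protein-coding genes taken on each side, a choice made after the data were seen. Of 32 distinct neighbours that are not members, 20 were measured, and their median log2 ratio of null over heterozygous was 0.02, with 11 above 0 and 9 below. None was 2-fold apart, where 1.12% of all measured genes were higher and 1.03% lower. The highest was 0.81 for Nes, the intermediate filament nestin, which lies beside Crabp2 and read 69.3 units in null cells and 39.4 units in heterozygous cells. Chsy1, a chondroitin synthase near Aldh1a3, had 0.78 (140 units in null cells and 81.2 units in heterozygous cells). Islr, a secreted leucine-rich protein beside Stra6, had 0.76 (158 units in null cells and 93.4 units in heterozygous cells), while Stra6 itself was below the floor. The lowest was -0.41 for Fra10ac1, near Rbp4.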
